A study of Homo sapiens with 6 samples.

Results

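The 51 genes described here carry a cell from G1 into S phase and copy its DNA. They were chosen by symbol from a fixed list of D and E cyclins with their kinases, CDK inhibitors, E2F factors, MCM and GINS subunits, clamp, polymerase, nucleotide supply and chromatin copying genes. The rule uses no measured value, but the list was chosen with earlier results of these data known. Each of the 51 matched exactly 1 gene of the 63140 listed in the files, and all 51 were among the 14451 genes with enough counts to be tested. Of the 51 genes, 13 regulate G1 progression and 38 belong to the replication machinery.

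In G1, cyclin D with CDK4 or CDK6 and then cyclin E with CDK2 phosphorylate the retinoblastoma protein, which releases E2F factors onto the promoters of replication genes. Origins are licensed when CDC6 and CDT1 load the MCM helicase, and they fire when CDC45 and the GINS complex switch the helicase on. The RNAs of many of these genes rise near the G1/S boundary, so in bulk RNA they are read as a measure of how many cells are in or near S phase. BT-549 is known to lack functional RB1.

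BT-549 is a human triple negative breast cancer cell line. The libraries were made from wild-type BT-549 cells grown for 24 h either in adipocyte-conditioned medium (ACM) or in unconditioned medium (UCM), with 3 replicates of each, from polyA RNA sequenced in paired ends. ACM was insulin- and oleate-containing medium that had been kept on OP9 cells, a mouse stromal line differentiating into adipocytes, so the agent was a mixture secreted by mouse cells. The labels give ACM at 50%, whereas the study's methods describe it undiluted. The composition of UCM is not given in the sources used here, so base medium, serum, insulin and oleate cannot be told apart from what the adipocytes secreted. The labels do not say whether the replicates came from separate cultures on separate days, so p-values measure the spread between these samples, which may be technical.

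The libraries held between 17135288 and 21053257 expected counts. The labelled cell type was epithelial, but the epithelial markers EPCAM, KRT8, KRT18, KRT19 and ESRP1 were at or near 0 and CDH1 and CLDN4 near 1 CPM (reads of a gene relative to library size), while the mesenchymal marker VIM ranged from 2740 to 3550 CPM. ESR1 and PGR had no count in any library, whereas ERBB2 ranged from 61.6 to 75.0 CPM. Of the other mesenchymal markers FN1 ranged from 869 to 1380 CPM, CDH2 from 174 to 205 and ZEB1 from 45.5 to 80.5. Of 6 adipocyte markers ADIPOQ, LEP and CIDEC had no count, and PLIN1, FABP4 and LPL were at or below 0.0951 CPM in every library. Both replicate 1 libraries stood low for the genes described here. ACM replicate 1 was the lowest of its group for 43 of the 51 genes (84.3%, against 34.8% of all genes tested), and UCM replicate 1 for 37 of 51 (72.5%, against 43.4%). Counts without those 2 libraries are given beside the main counts.

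ACM left most of the G1/S and replication program close to its UCM level. In the edgeR fit to all 6 libraries RNA of 4 members fell, namely GINS2, RRM2, CDKN1B and CDC6. That of 1 member, POLD1, rose, and each estimate was less than 1.5-fold. The median log2 fold change (log2 FC, ACM over UCM) of the 51 genes was -0.10, against -0.01 for all genes tested, and 36 of the 51 (70.6%) had a negative log2 FC, against 51.9% of all genes tested. At an adjusted p-value of 0.05 from edgeR's quasi-likelihood test with Benjamini-Hochberg adjustment, 4 of 51 members (7.84%) were lower in ACM, against 2.21% of all genes tested, and 1 of 51 (1.96%) was higher, against 3.35%. Without replicate 1 of both media, 4 members (7.84%) were lower and 4 (7.84%) higher, against 5.04% and 7.07% of all genes in that fit, and the median was -0.07. Without ACM replicate 2, UCM replicate 2 or UCM replicate 3, no member passed the adjusted test in either direction, against 0.42% to 0.591% of all genes lower and 0.846% to 1.34% higher. With a correction for transcript length (effective lengths as offsets, or limma fits to TPM), only CDKN1B passed the adjusted test. It was 1.96% of the members, against 0.913% to 0.955% of all genes lower in those fits. No member was higher there, against 1.59% to 1.88% of all genes. Without ACM replicate 1 the median was -0.03, against -0.02 for all genes. In the unadjusted test 9 members (17.6%) were lower and 4 (7.84%) higher, against 11.5% and 11.9% of all genes tested.

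The 3 ACM libraries lay wholly below the 3 UCM libraries for 8 members (15.7%, against 15.1% of all genes tested) and wholly above them for 5 (9.80%, against 13.9%). With all 6 libraries the direction was thus more often negative than for all genes, whereas the share with ACM wholly below UCM was close to that of all genes. Without ACM replicate 1 the median of the members, -0.03, was near the -0.02 of all genes. In that fit 3 of the 6 MCM genes had a negative log2 FC, against all 6 with every library. All 4 genes of nucleotide supply stayed negative. With all 6 libraries, the 95% interval of the log2 FC lay inside ±0.58, the size of a 1.5-fold change, for 45 of the 51 members and for 35 of the 38 genes of the replication machinery. The plot of log2 FC by role shows these intervals. In bulk RNA, fewer cells in S phase and less RNA per cell cannot be told apart.

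**Figure D1:**
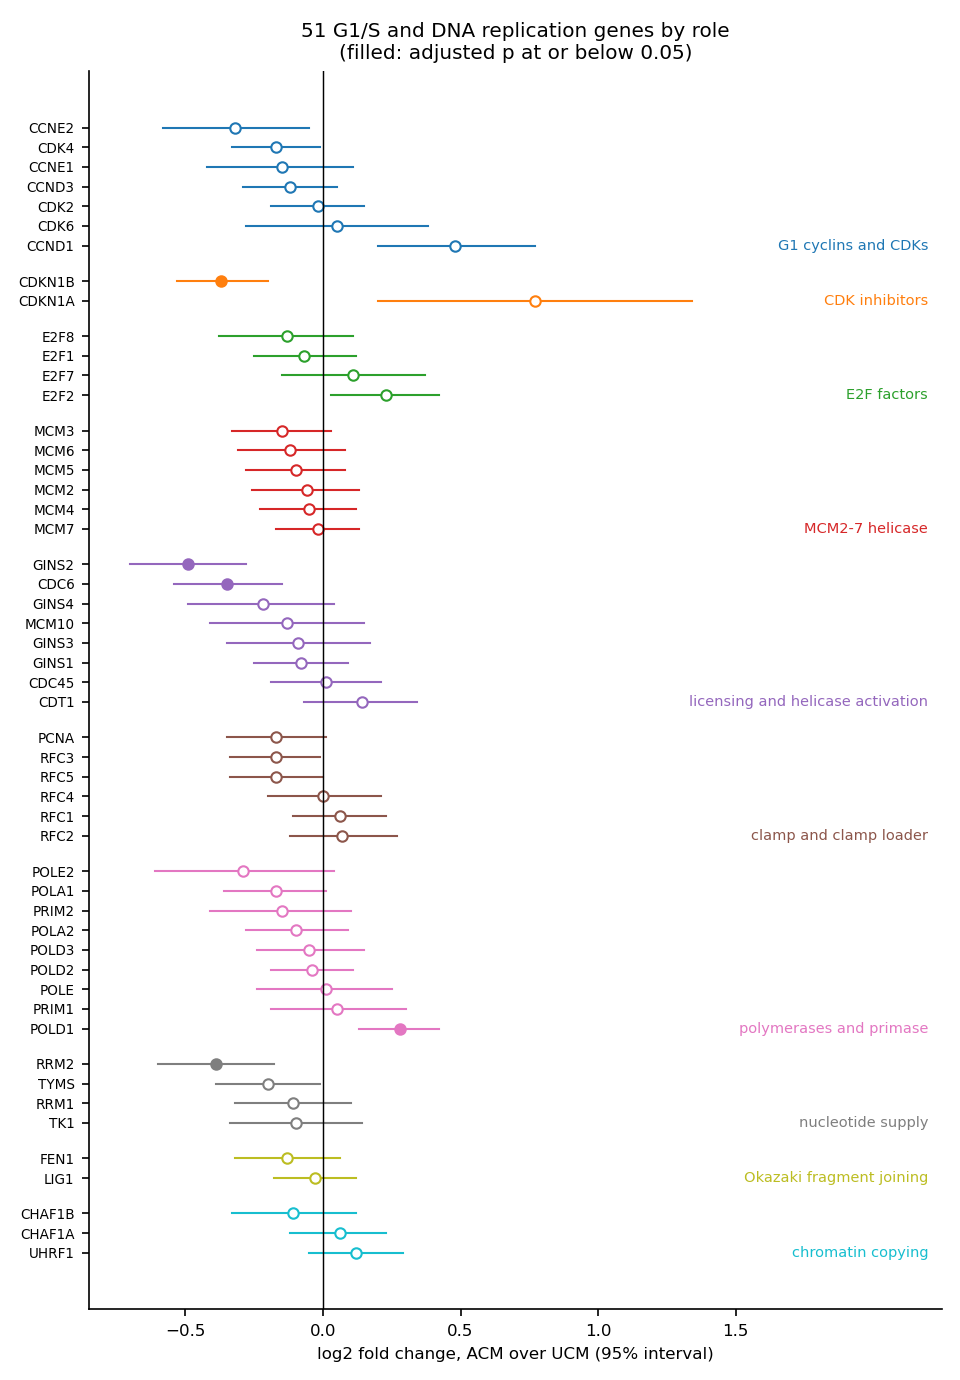
Log2 FC (ACM over UCM) of the 51 G1/S and DNA replication genes, ordered within their roles, with the 95% interval of each as a line and filled points for an adjusted p-value at or below 0.05. Filled points mark CDKN1B, GINS2, CDC6 and RRM2 below 0 and POLD1 above 0, and the 6 MCM genes lie between -0.15 and -0.02, although MCM4 was at 0.01 with effective lengths as offsets.

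In the absence of ACM the members spanned a wide range of levels. Mean TPM (a level relative to transcript length) in UCM ran from 7.77 for CDKN1A to 398 for PCNA, with a median of 44.6. Of the 51 genes, 11 had a mean of 100 TPM or more in UCM, and these were PCNA, MCM7, CDK4, MCM4, RRM2, POLD2, TYMS, MCM3, TK1, FEN1 and E2F1. Mean TPM was under 15 for 4 genes, CDKN1A, E2F7, E2F2 and E2F8. PCNA, at 398 ± 12.8 TPM (SD, n = 3), stood above MCM7 at 248 ± 9.22 TPM by more than their spread, whereas MCM7 and CDK4 at 245 ± 26.8 TPM did not differ beyond it. In ACM PCNA was also the highest, at 350 ± 36.1 TPM, as the plot of TPM by gene shows.

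**Figure D2:**
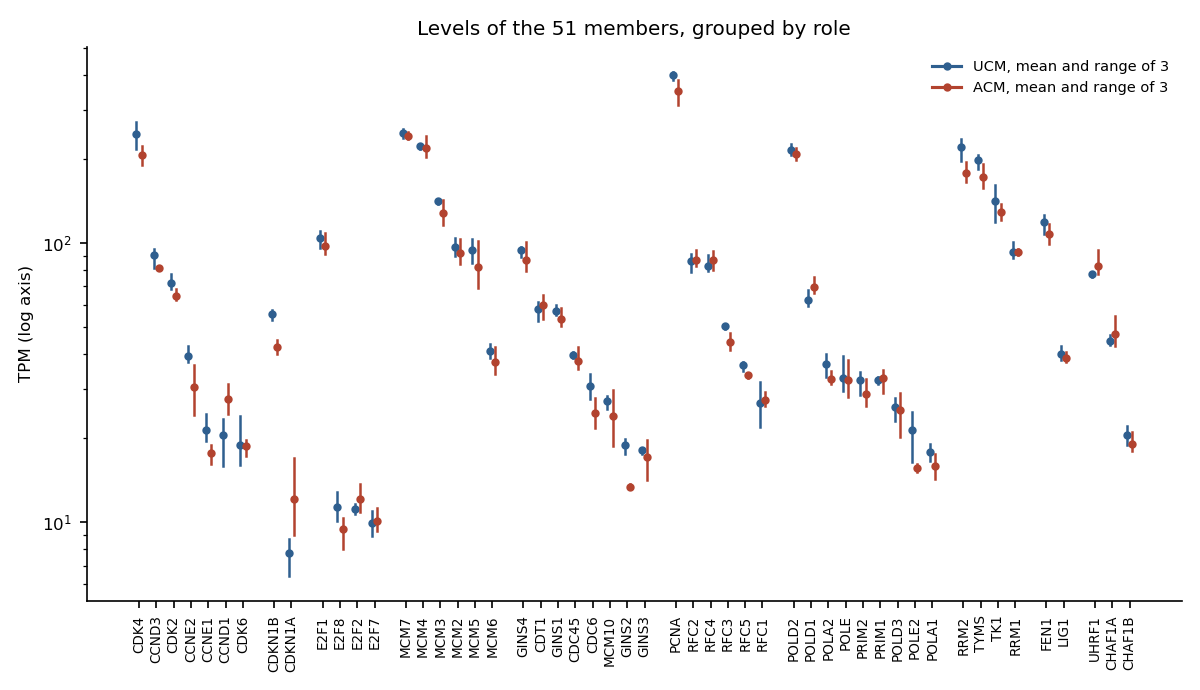
TPM of each member on a log axis in UCM (blue) and ACM (red), with points for the mean and lines for the range of 3 libraries, grouped by role and ordered by the UCM level. PCNA was highest at 398 TPM in UCM and 350 TPM in ACM, and CDKN1A was lowest in UCM at 7.77 TPM.

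E2F factors bind sites such as TTTCCCGC and TTTGGCGC and their reverse complements, GCGGGAAA and GCGCCAAA. Only these letters were searched for, so a window without them may still hold an E2F site of another form. RefSeq promoter windows (GRCh38.p14, 250 bases before to 50 after a gene's start) were at hand for 43 of the 51 members. Of these 43 genes, 18 (41.9%) held such letters on either strand, against 2.75% of the 27305 genes with a window. Windows of the 5 members that passed the adjusted test are printed 5′ to 3′ on the gene's strand, with E2F letters in capitals, to show which of the genes that moved hold them. They are CDC6 (chr17:40287629-40287928, plus strand), GINS2 (chr16:85688905-85689204, minus strand), RRM2 (chr2:10122489-10122788, plus strand), CDKN1B (chr12:12717118-12717417, plus strand) and POLD1 (chr19:50384073-50384372, plus strand).
CDC6: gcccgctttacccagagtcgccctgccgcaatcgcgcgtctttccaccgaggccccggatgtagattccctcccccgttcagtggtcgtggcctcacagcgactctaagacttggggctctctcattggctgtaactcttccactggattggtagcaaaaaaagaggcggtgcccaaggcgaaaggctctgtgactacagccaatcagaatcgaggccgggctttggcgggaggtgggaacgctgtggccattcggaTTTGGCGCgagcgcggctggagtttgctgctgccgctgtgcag
GINS2: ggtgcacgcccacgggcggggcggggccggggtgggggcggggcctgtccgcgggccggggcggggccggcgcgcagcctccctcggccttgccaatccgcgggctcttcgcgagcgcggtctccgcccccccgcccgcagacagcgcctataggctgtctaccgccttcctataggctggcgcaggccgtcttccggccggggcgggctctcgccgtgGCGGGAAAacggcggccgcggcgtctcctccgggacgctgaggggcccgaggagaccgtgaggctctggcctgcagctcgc
RRM2: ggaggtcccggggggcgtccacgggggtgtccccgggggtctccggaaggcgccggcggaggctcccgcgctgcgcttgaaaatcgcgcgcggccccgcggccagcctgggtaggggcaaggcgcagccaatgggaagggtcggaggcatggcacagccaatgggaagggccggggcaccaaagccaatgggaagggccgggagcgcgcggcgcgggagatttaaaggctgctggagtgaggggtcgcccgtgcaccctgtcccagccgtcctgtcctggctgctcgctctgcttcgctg
CDKN1B: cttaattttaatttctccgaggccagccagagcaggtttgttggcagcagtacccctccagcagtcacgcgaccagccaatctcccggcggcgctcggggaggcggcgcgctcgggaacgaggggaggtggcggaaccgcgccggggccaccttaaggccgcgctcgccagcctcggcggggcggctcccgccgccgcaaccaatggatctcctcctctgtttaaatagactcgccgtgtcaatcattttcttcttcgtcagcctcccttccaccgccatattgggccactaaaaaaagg
POLD1: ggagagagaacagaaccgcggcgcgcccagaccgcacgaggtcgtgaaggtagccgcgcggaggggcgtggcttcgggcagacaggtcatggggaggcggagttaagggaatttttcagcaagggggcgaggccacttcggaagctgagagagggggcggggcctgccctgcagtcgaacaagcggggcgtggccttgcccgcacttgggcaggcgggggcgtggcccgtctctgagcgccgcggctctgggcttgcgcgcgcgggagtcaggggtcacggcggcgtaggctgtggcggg
The letters began 7 bases after the start in CDC6 and 31 bases before it in GINS2, and the windows of RRM2, CDKN1B and POLD1 held none. RRM2 and POLD1 each had a further window, at another start, that is not printed and held none either. Among the 18 members with the letters 14 had a negative log2 FC and the median was -0.10. Among the 25 without them 15 had a negative log2 FC, and the median was also -0.10. Of the 8 members with no window 7 had a negative log2 FC and the median was -0.08. The medians with and without E2F letters were equal, whereas negative values were more frequent among members with the letters. This difference was not tested. A match is a description of letters and not a measured binding site.

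Among the cyclins and kinases of G1, no gene passed the adjusted test, and CCND1 had the largest difference. CCND1 encodes cyclin D1, the partner of CDK4 and CDK6 that responds to growth factor signals. Its CPM was 46.8, 38.1 and 37.9 in the UCM libraries, in the order of their replicate numbers, and 50.5, 67.5 and 54.0 in the ACM libraries. Every ACM library was above every UCM library, with the highest value in ACM replicate 2. The log2 FC of CCND1 was 0.48 ± 0.13 (SE), with an adjusted p-value of 0.0577 from edgeR's quasi-likelihood test. It passed the adjusted test by DESeq2 (0.0076) and without UCM replicate 1, where the log2 FC was 0.60 and the adjusted p-value from edgeR 0.0169, but it passed in only 4 of the 14 alternatives. Without ACM replicate 2 the log2 FC was 0.35 with an adjusted p-value of 0.176 from edgeR. The effective length that RSEM estimated for CCND1 differed up to 1.43-fold between libraries, the widest ratio among the 51 genes, and with effective lengths as offsets the log2 FC was 0.45 with an adjusted p-value of 0.165 from edgeR. In the annotation 10.4% of its exon bases overlap LTO1 on the opposite strand.

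The E cyclins, which activate CDK2 at the end of G1, both had negative values. CPM of CCNE2 was 34.0, 44.3 and 48.4 in ACM against 51.9, 51 and 54.9 in UCM. These groups did not overlap, and ACM replicate 1 was the lowest library. The log2 FC of CCNE2 was -0.32 ± 0.12 (SE), with an adjusted p-value of 0.145 from edgeR's quasi-likelihood test, and 37.0% of its exon bases overlap INTS8 on the opposite strand. Without ACM replicate 1 the log2 FC of CCNE2 was -0.17. CCNE1 had 16.1, 20.3 and 18.7 CPM in ACM and 22.3, 18.6 and 20.3 CPM in UCM, which overlapped, for a log2 FC of -0.15. Without both replicate 1 libraries it was 0.02.

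CDK4, the most abundant kinase of the set, had 152, 160 and 164 CPM in ACM and 165, 190 and 179 CPM in UCM. Its log2 FC was -0.17, the unadjusted p-value from edgeR was 0.0427 and the adjusted p-value 0.196, and 44.2% of its exon bases overlap TSPAN31 on the opposite strand. CDK6 had 154, 142 and 154 CPM in ACM, all between the 182 CPM of UCM replicate 1 and the 127 and 125 CPM of UCM replicates 2 and 3. The log2 FC of CDK6 was accordingly 0.05 with all libraries, and 0.26 without UCM replicate 1, where its adjusted p-value from edgeR was 0.0418. CDK6 was singled out after its values were seen. CDK2 and CCND3, a second D cyclin, had log2 FC values of -0.02 and -0.12 with overlapping libraries.

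The 2 CDK inhibitors had opposite signs. CDKN1B encodes p27, which binds and blocks cyclin E with CDK2 and is removed as cells leave G1. CDKN1B (ENSG00000111276) lies on chromosome 12 from 12685498 to 12722369 on the plus strand. Its CPM was 72.1, 64.9 and 65.3 in ACM and 83.0, 89.2 and 89.2 in UCM. No ACM library reached the lowest UCM library. CDKN1B fell by 22.5%, with a log2 FC of -0.37 ± 0.07 (SE) and an adjusted p-value of 0.0203 from edgeR's quasi-likelihood test. It was the member whose call held under the most alternatives, 10 of 14, including DESeq2 and both fits to TPM. The call was lost in the 4 fits without ACM replicate 2, ACM replicate 3, UCM replicate 2 or UCM replicate 3, where the log2 FC was between -0.35 and -0.34 and the adjusted p-value from edgeR reached 0.113.

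CDKN1A encodes p21, a CDK inhibitor that also binds PCNA. Its CPM was 11.4, 22.5 and 13 in ACM and 10.0, 9.19 and 8.28 in UCM. Every ACM library was above every UCM library, but ACM replicate 2 was far above the other ACM libraries. The log2 FC of CDKN1A, 0.77 ± 0.25 (SE), was the only one of the 51 beyond ±0.58, and its adjusted p-value was 0.113 from edgeR's quasi-likelihood test. Over the 14 alternatives the log2 FC ranged from 0.41 to 0.96 and the adjusted p-value from 2.86e-05 to 0.298, with CDKN1A called by DESeq2 and by edgeR with a filter of at least 1 count in total. Without ACM replicate 2 the log2 FC was 0.41. The per-library plot shows these genes beside the members that passed.

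**Figure D3:**
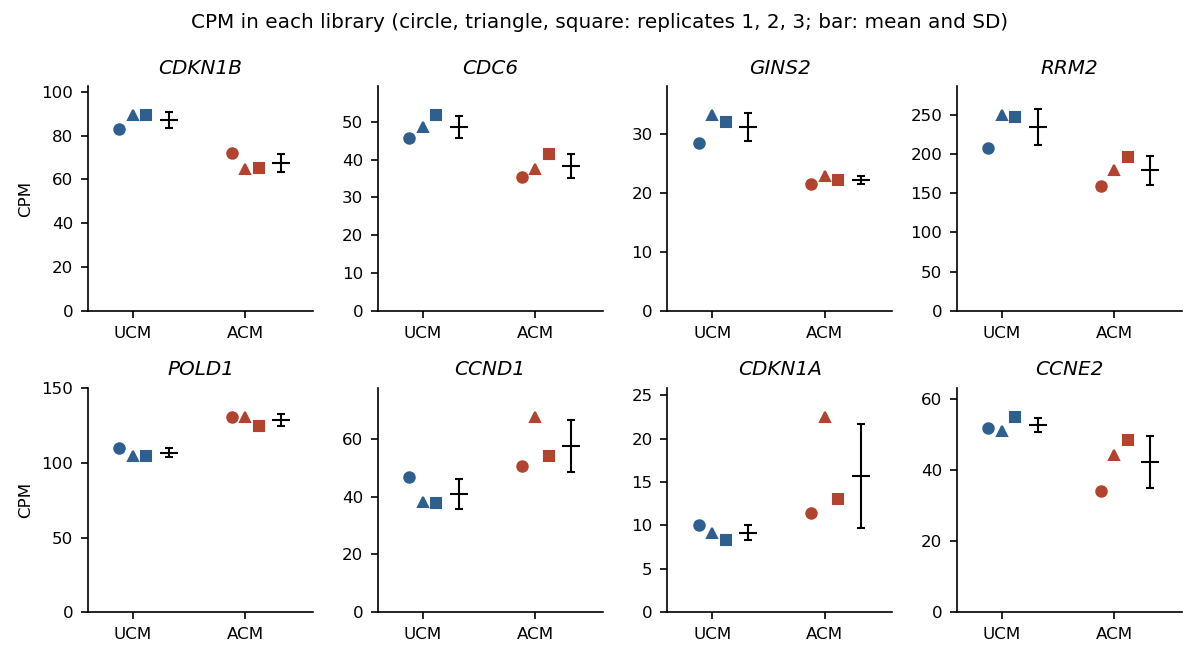
CPM on a linear axis from 0 in each UCM (blue) and ACM (red) library for the 5 members that passed the adjusted test (CDKN1B, CDC6, GINS2, RRM2 and POLD1) and for CCND1, CDKN1A and CCNE2, which did not, with the mean and SD of 3 beside each group. The groups are apart in all 8 panels, and ACM replicate 2 (triangle) stands above the other ACM libraries for CDKN1A at 22.5 CPM.

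None of the 4 E2F genes passed the adjusted test in edgeR's quasi-likelihood test or DESeq2, and 1 passed the unadjusted test in each. In edgeR that gene was higher in the unadjusted test, as were 11.9% of all genes tested. E2F1, an activator that drives S phase genes and the most abundant of the 4 at 104 ± 7.19 TPM (SD, n = 3) in UCM, had 156, 161 and 182 CPM in ACM and 159, 179 and 185 CPM in UCM. Its groups overlapped, with a log2 FC of -0.07. E2F2, another activator, had 37.7, 41.3 and 45.6 CPM in ACM and 35.7, 35.3 and 35.5 CPM in UCM. All ACM libraries of E2F2 were above UCM, with a log2 FC of 0.23 and an adjusted p-value of 0.160 from edgeR. The value moved with single libraries and with length. It was 0.31 without both replicate 1 libraries (adjusted p-value 0.0491 from edgeR), 0.15 without ACM replicate 3 (0.366), 0.13 with effective lengths as offsets (0.551) and 0.10 on log2(TPM + 1) by limma (0.724). The repressors E2F7 and E2F8 had log2 FC values of 0.11 and -0.13, and their libraries overlapped.

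The 6 subunits of the MCM helicase, the ring that unwinds DNA at the fork, had small log2 FC values. They were -0.06 for MCM2, -0.15 for MCM3, -0.05 for MCM4, -0.10 for MCM5, -0.12 for MCM6 and -0.02 for MCM7. None passed the adjusted or the unadjusted test, by edgeR's quasi-likelihood test or by DESeq2, and all 6 had overlapping libraries. MCM3, the lowest, had 215, 235 and 262 CPM in ACM and 253, 267 and 270 CPM in UCM. The 95% interval of MCM3 ran from -0.33 to 0.03, and that of MCM7 from -0.17 to 0.13. A change as large as 1.5-fold thus lay outside the interval of every MCM gene. The signs were not stable. Without ACM replicate 1, MCM2, MCM4 and MCM7 were each at 0.01, without UCM replicate 3 MCM2 was at 0.00 and MCM7 at 0.02, and with effective lengths as offsets MCM4 was at 0.01. Although the subunits join the ring in equal number, their RNA levels in UCM ranged from 41.0 ± 2.39 TPM for MCM6 to 248 ± 9.22 TPM for MCM7 (SD, n = 3).

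Of the 8 genes that license origins or activate the helicase, 2 fell and none rose after adjustment. Of all genes tested 2.21% fell and 3.35% rose. GINS2 encodes a subunit of the 4-part GINS complex, which joins CDC45 and the MCM ring in the active helicase. GINS2 (ENSG00000131153) lies, in GRCh38 coordinates of the annotation, on chromosome 16 from 85676198 to 85690073 on the minus strand. Its CPM was 21.5, 22.8 and 22.2 in ACM and 28.4, 33.1 and 32 in UCM. All 3 ACM libraries lay close together and far below UCM. GINS2 fell by 28.8%, the largest decrease of the 51 genes, with a log2 FC of -0.49 ± 0.09 (SE) and an adjusted p-value of 0.0169 from edgeR's quasi-likelihood test. The call was kept in 8 of 14 alternatives, and its log2 FC stayed between -0.54 and -0.45 in all 14. It was lost in both fits to TPM, with effective lengths as offsets, and without ACM replicate 2, UCM replicate 2 or UCM replicate 3, where the adjusted p-value reached 0.0996.

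CDC6 recruits the MCM ring to origins. CDC6 (ENSG00000094804) lies on chromosome 17 from 40287879 to 40304657 on the plus strand. Its CPM was 35.5, 37.6 and 41.6 in ACM and 45.6, 48.7 and 51.7 in UCM. Its groups were apart, with replicate 1 lowest in both media. CDC6 fell by 21.4%, with a log2 FC of -0.35 ± 0.09 (SE) and an adjusted p-value of 0.0493 from edgeR's quasi-likelihood test, just inside the threshold. It was called in 5 of 14 alternatives, with log2 FC between -0.41 and -0.29 and adjusted p-values up to 0.219. The call was lost with another scaling of library size (RLE, adjusted p-value 0.0565 from edgeR), in both fits to TPM and with effective lengths as offsets. It was also lost without any 1 of the 3 ACM libraries and without UCM replicate 2 or 3, where the log2 FC was between -0.41 and -0.29.

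CDT1, which loads the MCM ring together with CDC6, did not pass the adjusted test, and its difference from CDC6 was not tested. CDT1 had 82.1, 101 and 97.4 CPM in ACM and 79.1, 92.2 and 83.8 CPM in UCM, with a log2 FC of 0.14 ± 0.09 (SE). The other GINS genes did not pass either, at -0.08 for GINS1, -0.09 for GINS3 and -0.22 for GINS4. GINS4 had 88.2, 75.2 and 98.9 CPM in ACM and 88.8, 104 and 113 CPM in UCM, which overlapped. CDC45 was at 0.01 and MCM10, which stabilises the fork, at -0.13. The interval of GINS2, from -0.70 to -0.28, overlapped those of GINS3 and GINS4 but not that of GINS1, from -0.25 to 0.09, and the differences between the subunits were not tested.

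The sliding clamp and its loader gave no call in edgeR's quasi-likelihood test or DESeq2 at the adjusted p-value. In the unadjusted edgeR test 2 of 6 genes were lower, against 11.5% of all genes tested. PCNA, the clamp that holds polymerases on DNA, had 220, 256 and 266 CPM in ACM and 263, 284 and 286 CPM in UCM. Only ACM replicate 3 reached into the UCM range, and the log2 FC of PCNA was -0.17 ± 0.08 (SE) with an adjusted p-value of 0.249 from edgeR. The loader subunits RFC3 and RFC5 were also at -0.17 each, with unadjusted p-values of 0.0419 and 0.0487 and adjusted p-values of 0.195 and 0.211 from edgeR. RFC3 had 56.8, 62.3 and 64.4 CPM in ACM against 68.9, 70.9 and 67.0 CPM in UCM, and RFC5 had 39.1, 39.8 and 39.0 CPM against 41.9, 45.5 and 45.4 CPM. Both genes had all ACM libraries below UCM. RFC1, RFC2 and RFC4 were at 0.06, 0.07 and 0.00.

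Of the 9 polymerase and primase genes, 1 rose and none fell after adjustment. Of all genes tested 3.35% rose and 2.21% fell. POLD1 encodes the catalytic subunit of DNA polymerase delta, the main lagging strand polymerase. POLD1 (ENSG00000062822) lies on chromosome 19 from 50384204 to 50418018 on the plus strand. Its CPM was 131, 131 and 125 in ACM and 110, 105 and 105 in UCM. Every ACM library was above UCM. POLD1 rose by 21.1%, with a log2 FC of 0.28 ± 0.06 (SE) and an adjusted p-value of 0.0348 from edgeR's quasi-likelihood test. The size of this difference depended on length. The effective lengths of POLD1 were 2468, 2713 and 2722 bases in ACM and 2355, 2449 and 2527 bases in UCM, and with effective lengths as offsets the log2 FC was 0.18 and the call was lost. On log2(TPM + 1) the log2 FC of POLD1 was 0.15. The call was also lost without any 1 of the ACM libraries and without UCM replicate 2 or 3, where the log2 FC was between 0.26 and 0.30.

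Of the other subunits of the same polymerase, POLD2 and POLD3 were at -0.04 and -0.05, and POLD4, which is not a member, was at 0.29. POLD4 had 18.1, 19.2 and 18.4 CPM in ACM and 13.9, 15.2 and 16.3 CPM in UCM, with an unadjusted p-value of 0.0203 and an adjusted p-value of 0.135 from edgeR's quasi-likelihood test. It was singled out after its values were seen. POLE2, a subunit of the leading strand polymerase epsilon, had the lowest value of this role. It had 12.2, 12.6 and 13.3 CPM in ACM and 12.3, 17.7 and 16.5 CPM in UCM, so that UCM replicate 1 lay among the ACM libraries, and its log2 FC was -0.29 ± 0.15 (SE) with an adjusted p-value of 0.272 from edgeR. The catalytic subunit POLE was at 0.01. In the polymerase alpha and primase complex, which starts each new strand, POLA1, POLA2, PRIM1 and PRIM2 were at -0.17, -0.10, 0.05 and -0.15.

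All 4 genes of nucleotide supply had negative values, apart from RRM1 with effective lengths as offsets (0.02), and RRM2 fell. RRM2 encodes the small subunit of ribonucleotide reductase, which makes deoxyribonucleotides and limits their supply in S phase. RRM2 (ENSG00000171848) lies on chromosome 2 from 10120698 to 10211725 on the plus strand. Its CPM was 159, 180 and 196 in ACM and 208, 249 and 247 in UCM. Its groups were apart, with replicate 1 lowest in both media. RRM2 fell by 23.8%, with a log2 FC of -0.39 ± 0.10 (SE) and an adjusted p-value of 0.0423 from edgeR's quasi-likelihood test. The call was kept in 7 of 14 alternatives, with log2 FC between -0.47 and -0.28 and adjusted p-values up to 0.176. It was lost in both fits to TPM, with effective lengths as offsets, and without ACM replicate 1 or 2 or UCM replicate 2 or 3, where the log2 FC was between -0.40 and -0.31.

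TYMS, thymidylate synthase, had 146, 162 and 169 CPM in ACM and 163, 193 and 190 CPM in UCM, which overlapped at UCM replicate 1. Its log2 FC was -0.20, with an unadjusted p-value of 0.0423 and an adjusted p-value of 0.195 from edgeR, and 39.9% of its exon bases overlap ENOSF1 on the opposite strand. The large reductase subunit RRM1 was at -0.11 and the salvage enzyme TK1 at -0.10. TK1 had 97.7, 105 and 113 CPM in ACM and 94.4, 121 and 124 CPM in UCM, so that UCM replicate 1 was the lowest of all 6 libraries.

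None of the 5 genes that act behind the fork passed the adjusted or the unadjusted test, by edgeR's quasi-likelihood test or by DESeq2. FEN1, which trims Okazaki fragments, was at -0.13 and LIG1, which joins them, at -0.03, with 77.3, 74.9 and 71.7 CPM of LIG1 in ACM and 78.0, 75.8 and 75.0 CPM in UCM. UHRF1, which carries DNA methylation through replication, had 179, 182 and 213 CPM in ACM and 176, 176 and 177 CPM in UCM. All ACM libraries of UHRF1 were above UCM, but the log2 FC was 0.12 with an adjusted p-value of 0.391 from edgeR's quasi-likelihood test. CHAF1A and CHAF1B, subunits of the chromatin assembly factor that follows PCNA, were at 0.06 and -0.11.

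Summed over the 38 genes of the replication machinery, the libraries overlapped between media. The sums were 4280, 4680 and 4710 CPM in the UCM libraries and 4020, 4310 and 4590 CPM in the ACM libraries, in the order of their replicate numbers. In each medium replicate 1 had the lowest sum, and ACM replicate 3 was above UCM replicate 1. Within the machinery, ACM replicate 1 was the lowest of its group for 33 of 38 genes and UCM replicate 1 for 32 of 38. Between libraries of the same replicate number, the median difference of the 51 members (ACM minus UCM, log2 CPM) was -0.07, -0.14 and -0.04 for replicates 1, 2 and 3. The part of this offset of replicate 1 in the results above was not tested beyond the counts without it.

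**Figure D4:**
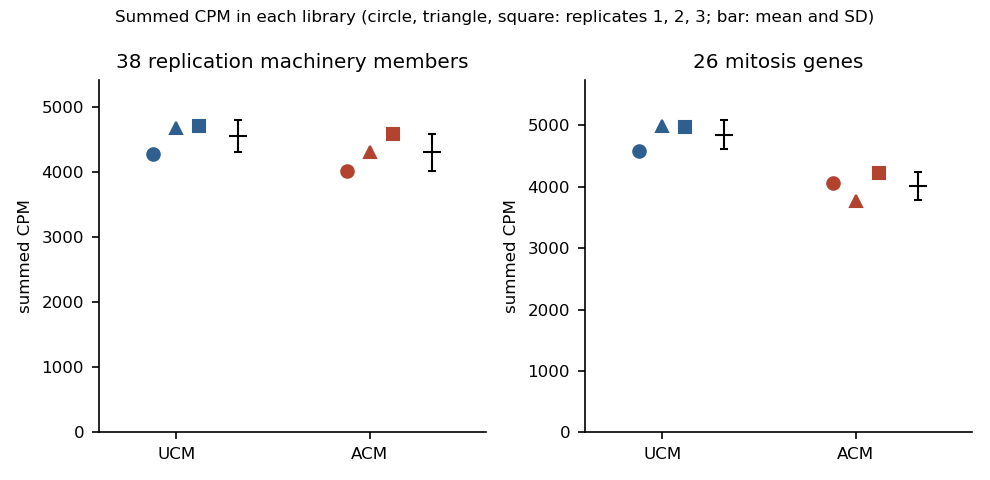
Summed CPM in each UCM (blue) and ACM (red) library, on axes from 0, of the 38 replication machinery members (left) and of 26 mitosis genes (right), with the mean and SD of 3. The replication sums overlap between media, whereas the mitosis sums, 3770 to 4220 CPM in ACM and 4580 to 4990 CPM in UCM, do not.

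Among replication genes outside the list, 1 gene fell. Of these 40 genes of origin recognition and firing, fork protection, nucleotide balance, histone supply and the remaining polymerase subunits, 27 had a negative log2 FC and the median was -0.07. By edgeR's quasi-likelihood test none was higher and 1 lower after adjustment, and 9 were lower and 1 higher in the unadjusted test. Of all genes tested 3.35% were higher and 2.21% lower after adjustment, and 11.9% were higher and 11.5% lower in the unadjusted test. The gene that fell was DBF4, the activating subunit of the CDC7 kinase that fires origins. DBF4 had 37.0, 31.0 and 38.3 CPM in ACM and 48.4, 52.3 and 51.1 CPM in UCM, and its log2 FC was -0.51 ± 0.09 (SE) with an adjusted p-value of 0.0143 from edgeR. The kinase CDC7 itself was at 0.17 with an adjusted p-value of 0.324, and it too was singled out after its values were seen.

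Of 19 tested G1/S regulators outside the list, 10 had a negative log2 FC, the median was -0.01, and 2 fell. Of all genes tested 2.21% were lower after adjustment. CDKN2C, an inhibitor of CDK4 and CDK6, had 157, 127 and 164 CPM in ACM and 191, 252 and 251 CPM in UCM. Its groups were apart, and its log2 FC was -0.63 ± 0.13 (SE) with an adjusted p-value of 0.0344 from edgeR's quasi-likelihood test. SKP2, the ubiquitin ligase subunit that marks p27 protein for destruction, had 54.9, 49.0 and 54.8 CPM in ACM and 62.2, 67.9 and 68.5 CPM in UCM. Its log2 FC was -0.32 ± 0.08 (SE), with an adjusted p-value of 0.0428 from edgeR. RNAs of the inhibitors CDKN1B and CDKN2C and of SKP2 thus all fell in the edgeR fit to all 6 libraries. Calls of genes outside the list, including DBF4 and the mitosis genes below, come from that fit only and were not followed through the alternatives. CCND2 had 3 counts in 1 library and none in the others and was not tested.

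RB1 RNA was low, at 12 ± 3.19 TPM (SD, n = 3) in UCM, and its log2 FC was -0.08 with an adjusted p-value of 0.723 from edgeR's quasi-likelihood test. CDKN2A, which encodes the CDK4 and CDK6 inhibitor p16, was far more abundant at 1240 ± 130 TPM in UCM, with 580, 614 and 630 CPM in ACM and 523, 660 and 641 CPM in UCM. Its log2 FC was 0.00 and its groups overlapped. Cells of both media thus held abundant CDKN2A RNA beside low RB1 RNA.

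Mitosis genes had a lower median than the members. Of 26 genes of the mitotic program, 24 had a negative log2 FC and the median was -0.24, against -0.10 for the members. In edgeR's quasi-likelihood test 5 of the 26 were lower after adjustment and 20 in the unadjusted test, none was higher in either, and 16 had ACM wholly below UCM. Of all genes tested 2.21% were lower after adjustment and 11.5% in the unadjusted test, and 15.1% had ACM wholly below UCM. The 5 were CDC20 at -0.51, AURKA at -0.42, CCNB1 at -0.40, KIF23 at -0.37 and TPX2 at -0.29, with adjusted p-values of 0.0387, 0.0243, 0.0236, 0.0121 and 0.0421. They encode an activator of the anaphase-promoting complex, a spindle pole kinase, cyclin B1, a midbody motor and a spindle assembly factor. MKI67, a proliferation marker, had 214, 157 and 183 CPM in ACM and 311, 225 and 236 CPM in UCM, with a log2 FC of -0.48 and an adjusted p-value of 0.118. The difference between the lists was not tested, and the plot of log2 FC by list shows their overlap.

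**Figure D5:**
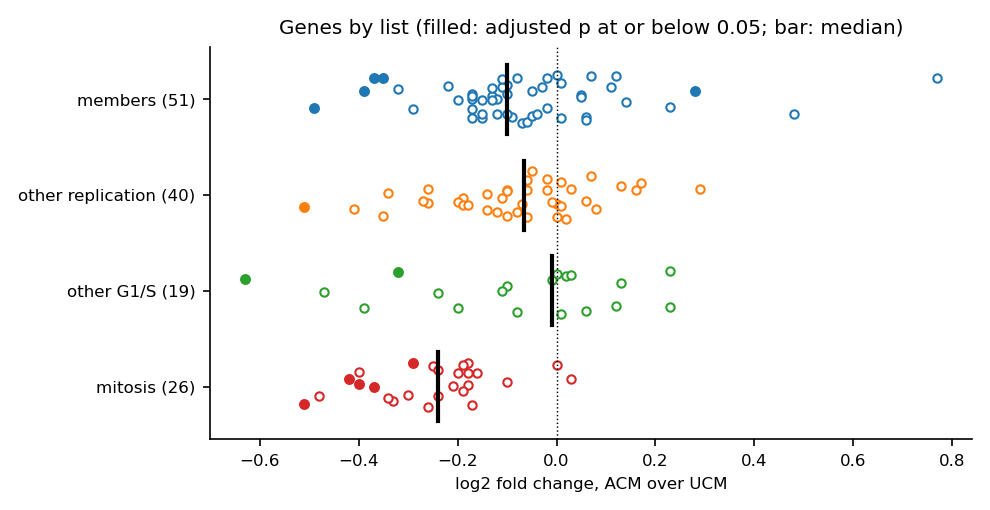
Log2 FC (ACM over UCM) of each tested gene of 4 lists, with filled points for an adjusted p-value at or below 0.05, a black bar for the list's median and vertical scatter with no meaning. The medians were -0.10 for the members, -0.07 for other replication genes, -0.01 for other G1/S regulators and -0.24 for mitosis genes.

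The promoter windows of the members and of the mitosis genes differed in the letters they held. E2F letters were found in 10 of 31 other replication genes (32.3%), 3 of 17 other G1/S regulators (17.6%) and 2 of 20 mitosis genes (10.0%). Of all genes with a window 2.75% held them. The letters TTTGAA, the core of the cell cycle homology region of G2/M promoters, were found with their reverse complement TTCAAA in 14 of the same 20 mitosis genes (70.0%), in 1 of 43 members (2.33%) and in 18.2% of all genes with a window. TTTGAA or TTCAAA was also found in 5 of 17 other G1/S regulators (29.4%) and 4 of 31 other replication genes (12.9%). The member with TTTGAA or TTCAAA was RRM1.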

How the data were processed

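Expected counts, TPM and effective lengths per gene were deposited for 3 ACM and 3 UCM libraries. The authors trimmed reads with Trim Galore, aligned them with STAR and quantified GRCh38 genes with RSEM; versions, annotation release and strand setting are not given in the sources used here. The authors' table of fold changes and p-values was not used. Expected counts were rounded, filtered with filterByExpr, scaled by TMM and tested with edgeR 4.0.16 (robust quasi-likelihood, R 4.3.3), with Benjamini-Hochberg adjustment over 14451 genes and a threshold of 0.05. The biological coefficient of variation was 0.115. CPM were computed from these counts, and TPM are as deposited by the authors. Totals per library ranged from 17135288 to 21053257. The fit was tested on simulated data. DESeq2 1.42.0 and limma 3.58.1 served as alternatives, with RLE scaling, other filters, effective-length offsets, a replicate block and each library left out.

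Symbols were found for 62541 of 63140 gene IDs, 61547 with their version. Coordinates and exon overlaps come from GENCODE (GRCh38) and promoter windows from RefSeq. The members and the lists of other replication, other G1/S, mitosis and cell marker genes were chosen with earlier results of these data known. Genes were named if past the adjusted or unadjusted threshold, if they had the highest TPM or the lowest or highest log2 FC of their role, or if on a list always named (CCND1, CDKN1A, CDKN1B, CCNE1, CCNE2, E2F1, PCNA, RB1, CDKN2A, MKI67); of other lists, up to 5 past the adjusted threshold. The remaining members are given by log2 FC. 1 further list is not reported here. No set test was run.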

Additional observations from a re-analysis of the deposited data

How the results depend on the processing

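The median log2 FC of the members kept its sign under all alternatives, between -0.15 and -0.03. Counts of calls moved more. Members higher and lower in ACM numbered 1 and 4 (all genes 484 and 320), and 3 and 4 by DESeq2 (764 and 447), 3 and 5 with at least 1 count in total (1045 and 679) and 2 and 4 with at least 10 counts in every library (554 and 313). With RLE scaling they numbered 1 and 3 (506 and 294), and CDC6 was lost. They numbered 0 and 1 by limma-trend on log2(TPM + 1) (230 and 132), on log2(TPM + 0.1) (234 and 138) and with effective lengths as offsets (272 and 134), and CDKN1B was the 1 kept in each. The share of members higher was 0% to 5.88% over these fits, against 1.59% to 5.73% of all genes, and the share lower 1.96% to 9.8%, against 0.913% to 3.35%. With each library left out in turn, members higher ranged from 0 to 3 (up to 5.88%) and lower from 0 to 4 (up to 7.84%). All genes higher ranged from 125 to 738 (0.846% to 5.03%) and lower from 62 to 572 (0.42% to 3.9%). Without replicate 1 of both media, an alternative chosen after seeing the data, 4 members were higher and 4 lower (all genes 1017 and 726). The log2 FC of MCM7 turned to 0.01 without ACM replicate 1 and 0.02 without UCM replicate 3 (-0.06 to 0.02 with each library left out), and that of CCNE1 to 0.02 without both replicate 1 libraries. The cause of these moves was not tested.

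With the replicate number as a block, 1 member (1.96%) was higher and 5 (9.8%) were lower (CCNE2 added, adjusted p-value 0.0453 from edgeR), and the median was -0.10. In that fit 909 genes (6.29%) were higher and 703 (4.86%) lower. The deviations of libraries with the same number correlated at 0.318, 0.0347 and 0.177 across genes, and those of unlike numbers at -0.314 to 0.196. ACM replicate 3 correlated best with UCM replicate 2 (0.196). The labels state no pairing, so the number served as a block only in this alternative. Whether libraries of the same number shared a culture or a day was not tested. CDKN1A rested on an average of 234.0 counts a library, and with 3 libraries a group a p-value that misses the threshold does not show that a gene was unchanged.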
